A study of Mus musculus with 10 samples.

Results

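The genes described here are the nuclear genes for subunits of the mitochondrial oxidative phosphorylation complexes, measured in mouse lung with and without Bpifb1, a gene for a secreted protein of the airway lining. They were chosen by symbol: protein-coding genes whose symbol in GENCODE release M21 begins with Nduf followed by ab1, a and a digit, b, c, s or v, with Cox4 to Cox8, with Uqcr or with Atp5, plus Sdha, Sdhb, Sdhc and Sdhd. The rule found 86 genes (85 symbols, since Atp5o has a second identifier) among the 47333 genes of the table. By complex it found 38 genes for complex I, 4 for complex II, 8 for complex III, 18 for complex IV and 18 for complex V. It also takes in Ndufa4l2, Cox7a2l and Atp5s, which are related to subunits or act beside them, and it leaves out cytochrome c1 (Cyc1) and the inhibitory factor Atpif1.

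The study sequenced RNA of the right middle lung lobe from 5 mice labelled KO for Bpifb1 and 5 labelled WT. All were untreated C57BL/6J mice aged 12 weeks, kept in cages that mixed the genotypes. The KO group was labelled as 1 male (replicate 1) and 4 females, and the WT group as 2 males (replicates 2 and 3) and 3 females. The labels do not say how the KO allele was made or in which cells the gene is lost. The libraries held 21357424 to 28321294 estimated counts each. The deleted gene, in CPM (counts per 1000000 counts of the library after scaling), averaged 0.614 ± 0.462 in KO libraries and 59.7 ± 23.6 in WT libraries (SD, n = 5 each). Its log2 fold change was -6.55 (edgeR's quasi-likelihood test, Benjamini-Hochberg adjusted p = 0.0275). The labels give no replicate numbers, and those used here follow the order of the samples within each genotype. KO replicate 5, labelled female, held 1.78 CPM of Xist. The 6 other labelled females held 274 to 407 CPM and the 3 labelled males 1.29 to 1.73 CPM. The counts over all subunit genes tested are therefore also given without KO replicate 5.

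Oxidative phosphorylation passes electrons from NADH through complex I, and from succinate through complex II, to ubiquinone, on to complex III, cytochrome c and complex IV, where oxygen is reduced. Complexes I, III and IV pump protons across the inner mitochondrial membrane, and complex V, the ATP synthase, makes ATP as the protons flow back. Most subunits are encoded in the nucleus, and a core set is encoded in mitochondrial DNA. The subunits encoded in mitochondrial DNA are not analysed here. In the lung, alveolar type 2 cells, which make surfactant, and ciliated airway cells are known to be rich in mitochondria. The tissue carried the markers of lung: the 7 alveolar type 2 markers summed to 23550 to 29060 CPM per mouse and the 5 club cell markers to 26070 to 34290 CPM.

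Of the 86 genes, 84 passed the filter on low counts, and 78 had a mean of at least 10 CPM. The exceptions were Cox8c and Cox7b2, isoform genes known from testis, which had 0 counts in all 10 libraries after rounding. A count of 0 allows up to 3 counts, which is 0.104 to 0.143 CPM at these depths. Together the 86 genes took 0.545% to 0.678% of all counts per mouse. Per kilobase of the principal coding transcript, the median tested gene had 62.4 CPM. Atp5b, the catalytic beta subunit of the ATP synthase, was highest at 305 ± 19.5 CPM per kilobase (SD over 10 mice). Next came Cox4i1 at 257 ± 22.5, then Cox6a1 at 214 ± 19.8, Atp5a1 (the alpha subunit of the ATP synthase) at 205 ± 11.9 and Cox8a at 202 ± 20.4 CPM per kilobase. The levels of Cox6a1, Atp5a1 and Cox8a lay within their SDs of each other. These levels depend on the gene model: with the union of all exons as length, Cox8a was highest at 179 CPM per kilobase. It was followed by Cox6a1 at 174, Atp5a1 at 161, Atp5b at 138, Cox6b1 at 136 and Cox4i1 at 123.

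Within complex I the level per length ran from 120 ± 13.4 CPM per kilobase for Ndufa4, a subunit named for complex I but since placed with complex IV, to 6.07 ± 1.06 for Ndufb4. Ndufb4 is an accessory subunit of the membrane arm, and its estimated counts were not whole numbers in any of 10 libraries, so reads may be shared with copies elsewhere. With the union of all exons as length, Ndufb11 was highest (84.3 CPM per kilobase) and Ndufb4 again lowest (3.08). The subunits that carry the redox centres lay between: Ndufs7 at 70.9 ± 8.34, Ndufv1 at 48.5 ± 3.64 and Ndufs1 at 21.02 ± 1.10 CPM per kilobase. In complex II, the flavoprotein Sdha (74.4 ± 3.16) and the iron-sulfur subunit Sdhb (64.5 ± 5.78) exceeded the membrane anchors Sdhd (50.4 ± 4.61) and Sdhc (25.4 ± 2.40 CPM per kilobase). With the union of all exons, Sdhb (32.9) lay below Sdhd (50.4 CPM per kilobase), while Sdha (52.3) and Sdhc (24.7) kept their places. In complex III the hinge subunit Uqcrh was highest at 164 ± 16.02 CPM per kilobase. The core subunit Uqcrc2 was lowest at 43.0 ± 3.46, not separable from the Rieske iron-sulfur protein Uqcrfs1 at 45.6 ± 4.60. The other core subunit, Uqcrc1, measured 74.5 ± 5.25 CPM per kilobase. With the union of all exons, Uqcr11 (87.4) and Uqcr10 (83.4) lay above Uqcrh (72.6), and Uqcrq (24.02) and Uqcrc1 (29.8) lay below Uqcrc2 (31.97 CPM per kilobase).

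Several subunits of complex IV have a second gene with a tissue-restricted pattern. Cox4i2, an isoform known for its expression in lung, measured 55.2 ± 4.54 CPM per kilobase beside 257 ± 22.5 for the ubiquitous Cox4i1. The isoforms known from heart and skeletal muscle were lower: Cox6a2 measured 30.4 ± 7.55, Cox8b 11.3 ± 3.37 and Cox7a1 11 ± 2.86 CPM per kilobase. Their ubiquitous counterparts measured 214 ± 19.8 (Cox6a1), 202 ± 20.4 (Cox8a) and 78.9 ± 8.72 (Cox7a2). Cox6b2, known from testis, was detected at 22.5 ± 2.84 against 156 ± 12.8 CPM per kilobase for Cox6b1. Cox7a2l, a gene related to Cox7a2, stood at 137 ± 10.03 CPM per kilobase. Ndufa4l2, a paralog of Ndufa4 known to be induced by hypoxia, measured 32.9 ± 2.34 against 120 ± 13.4 for Ndufa4. The 3 genes for subunit c of the ATP synthase, which encode the same mature protein behind different import signals, also differed in level: Atp5g3 measured 152 ± 12.7, Atp5g1 41.0 ± 3.08 and Atp5g2 2.89 ± 1.23 CPM per kilobase. Estimated counts of Atp5g1 and Atp5g2 were not whole in any of 10 libraries, so the split of reads between these genes and their copies is uncertain.

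**Figure D1:**
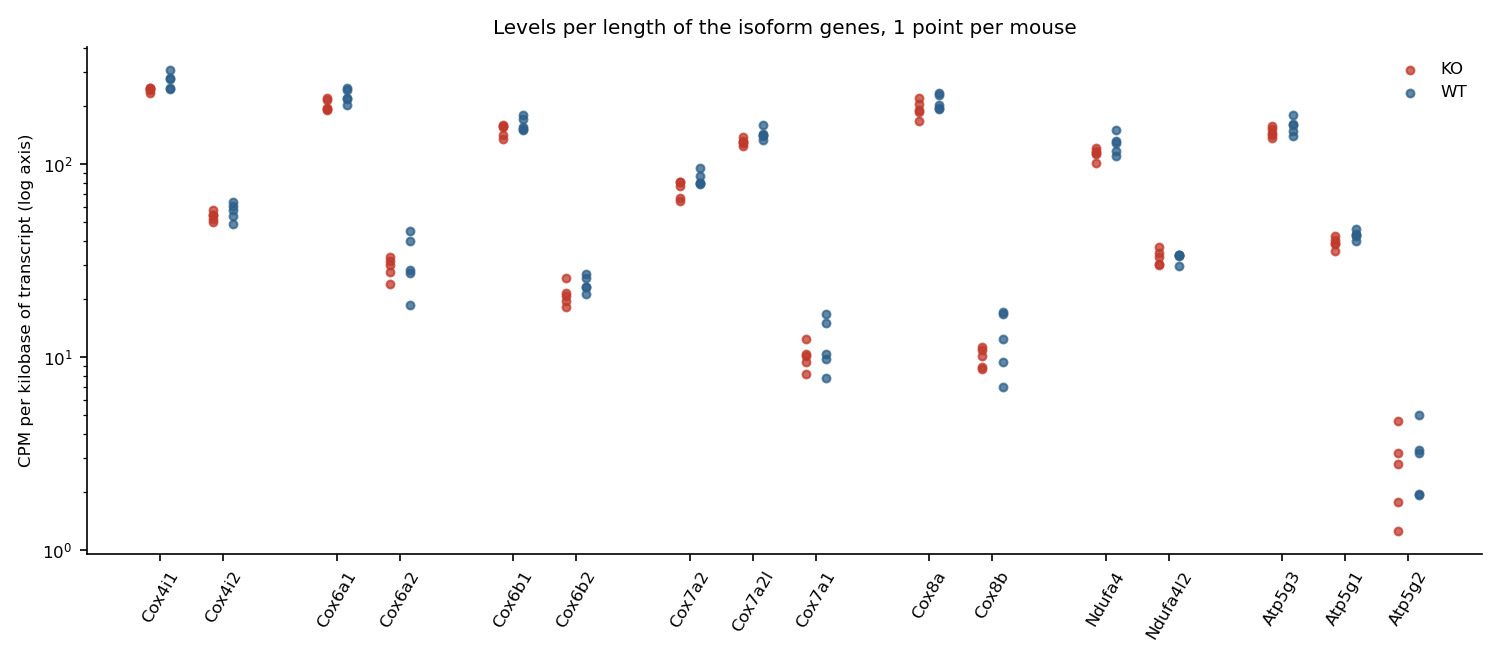
CPM per kilobase of the principal coding transcript on a log axis for the isoform genes, 1 point per mouse, KO in red and WT in blue. The genes of a family differ by far more than the genotypes do, as between Cox4i1 (257) and Cox4i2 (55.2 CPM per kilobase).

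The 3 heart isoforms varied between mice in another order than the other 13 tested genes of complex IV: WT replicate 4 deviated from the mean over mice by -0.58 on the log2 scale for the former and by 0.01 for the latter. Cox6a2 measured 22.4, 16.3, 18.6, 20.3 and 21.3 CPM in KO replicates 1 to 5 and 30.5, 19.2, 18.4, 12.7 and 27.2 CPM in WT replicates 1 to 5. WT replicates 1 and 5 were high, WT replicate 4 was low, and the genotypes overlapped. Cox7a1 was likewise highest in WT replicates 5 (6.53 CPM) and 1 (5.90 CPM) and lowest in WT replicate 4 (3.04 CPM). Cox8b read 6.18, 6.04 and 2.52 CPM in those libraries. The summed level of 10 cardiac muscle markers, such as Myh6 and Myl7, was also lowest in WT replicate 4 (494 CPM) and high in WT replicates 5 (1285 CPM) and 1 (1141 CPM), and all 10 markers were tested. Mouse pulmonary veins are known to carry a sleeve of cardiac muscle. The cardiac sums fell into a set of 4 mice from 1125 to 1297 CPM and a set of 6 from 494 to 826 CPM, so no correlation over all mice is given. Cox6a2 ran from 21.3 to 30.5 CPM in the first set and from 12.7 to 20.3 CPM in the second, whereas Cox6a1 overlapped (110 to 142 and 108 to 138 CPM). Cox7a1 (3.71 to 6.53 and 3.04 to 4.09 CPM) and Cox8b (3.90 to 6.18 and 2.52 to 4.46 CPM) also overlapped between the sets. KO replicate 1, which had the highest cardiac sum (1297 CPM), measured 22.4 CPM of Cox6a2, 4.88 of Cox7a1 and 3.90 of Cox8b, each below WT replicates 1 and 5. KO sums (763 to 1297 CPM) and WT sums (494 to 1285 CPM) overlapped, and the part of cardiac muscle in these values was not tested.

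**Figure D2:**
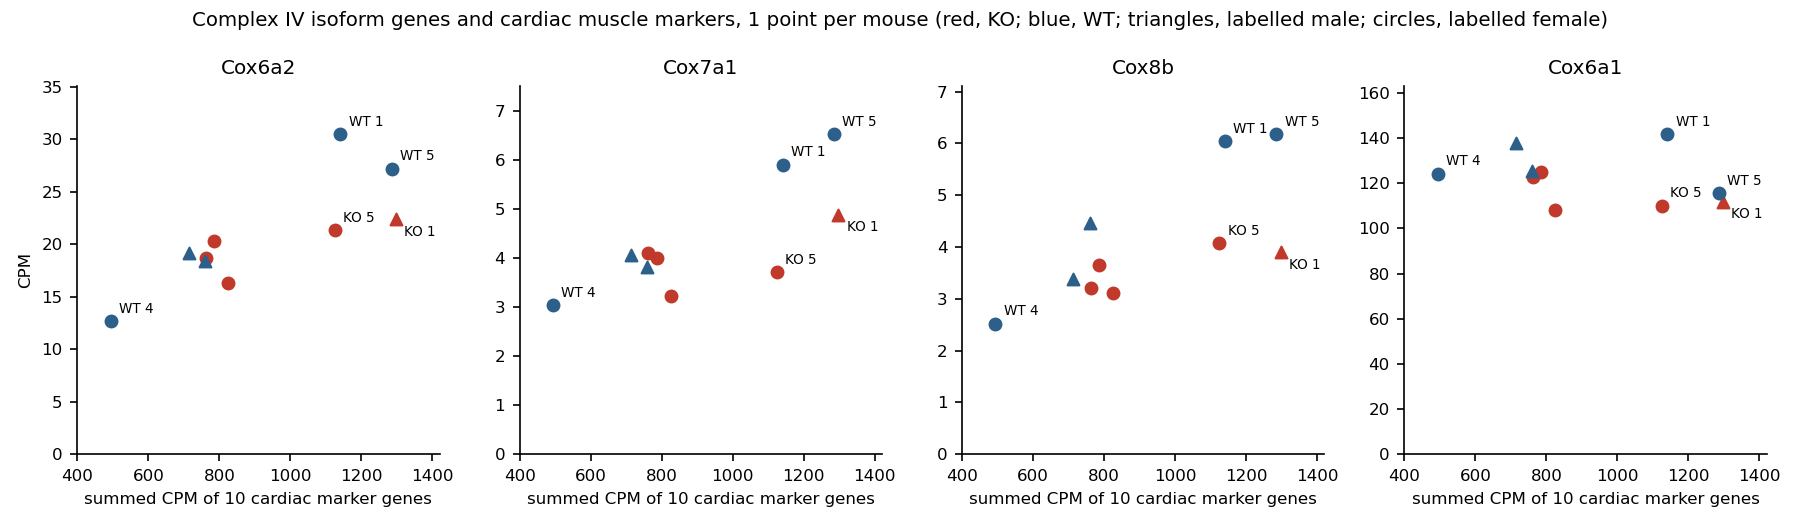
CPM of Cox6a2, Cox7a1, Cox8b and Cox6a1 against the summed CPM of 10 cardiac marker genes, 1 point per mouse. WT replicate 4, with the lowest cardiac sum (494 CPM), has the lowest values of the 3 heart isoforms, and WT replicates 1 and 5 have the highest, above KO replicate 1, whose cardiac sum is highest (1297 CPM).

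What the genes share besides their function was looked for in the promoter. Nuclear respiratory factor NRF1, the ETS family factor GABP, YY1 and estrogen-related receptors are textbook regulators of respiratory chain genes. RefSeq windows (GRCm38.p6) of 300 bases, 250 before and 50 after the start, were matched to 70 of the 86 genes. The NRF1 core GCGCATGCG was present, on either strand, in 8 of these 70 windows (11.4%) and in 1.75% of all 32851 windows. The ETS core CCGGAAG was in 15 (21.4% against 8.86%), the YY1 motif AANATGGCG in 8 (11.4% against 2.38%) and the estrogen-related receptor motif TNAAGGTCA in 3 (4.29% against 1.28%). An NRF1, ETS or YY1 match was found in 27 of the 70. The share of all windows with any of these was not counted, so the 27 have no background beside them. None of the 4 motifs holds another. A match describes letters and shows no binding. The stretches below, all upstream of the annotated start and written along the gene's strand, show matches in genes whose values follow, with the match in capitals. The first 3 hold NRF1 cores, at chr5:115349092-115349140 (minus strand), chr5:108434421-108434469 (minus strand) and chr17:56717682-56717730 (plus strand). The last 3 hold ETS cores, at chr10:80406861-80406907, chr4:116075071-116075100 and chr9:50603869-50603915 (all minus strand).
Cox6a1: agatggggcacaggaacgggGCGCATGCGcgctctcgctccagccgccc
Atp5k: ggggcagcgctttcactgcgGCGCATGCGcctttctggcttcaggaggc
Ndufa11: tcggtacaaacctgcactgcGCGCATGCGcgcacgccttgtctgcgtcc
Uqcr11: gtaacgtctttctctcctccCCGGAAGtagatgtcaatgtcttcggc
Uqcrh: actacgaggagtatgccgcaCTTCCGGcca
Sdhd: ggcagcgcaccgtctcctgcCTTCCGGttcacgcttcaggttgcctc

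All 3 NRF1 matches share the 9-letter core because the search required it, and they differ in the bases around it. In Uqcrh and Sdhd the ETS core lies on the opposite strand, so it reads CTTCCGG. Genes with an NRF1 match had a median log2 fold change, KO minus WT, of -0.18 (8 genes tested), and those without one -0.16 (61 genes). For the ETS core the medians were -0.16 in both sets. For the YY1 motif they were -0.18 with a match (8 genes) and -0.16 without (61 genes). For the estrogen-related receptor motif they were -0.17 (3 genes) and -0.16 (66 genes). These differences were not tested.

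The comparison of KO with WT asks which genes differ when Bpifb1 is lost. None of the 84 subunit genes passed it at an adjusted p under 0.05 (edgeR's quasi-likelihood test, Benjamini-Hochberg over 18024 genes), where 4 genes, or 0.0222%, passed in all. At an adjusted p under 0.1 the counts were 0 of 84 and 57 of 18024 (0.316%). Most estimates shared a direction: 81 of the 84 genes had a negative log2 fold change and 3 a positive one. Over all 18024 genes, 9133 were negative and 8891 positive. The median of the 84 was -0.16, against -0.003 over all genes tested. At an unadjusted p under 0.05, 40 of the 84 (47.6%) were lower in KO and 0 higher. In the background 17% of all genes reached that p in either direction and 8.04% were lower in KO. The lowest adjusted p among the 84 was 0.132 by edgeR's quasi-likelihood test, and the median standard error of a log2 fold change was 0.07. In whole lung, fewer cells of a type and less RNA per cell cannot be told apart.

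**Figure D3:**
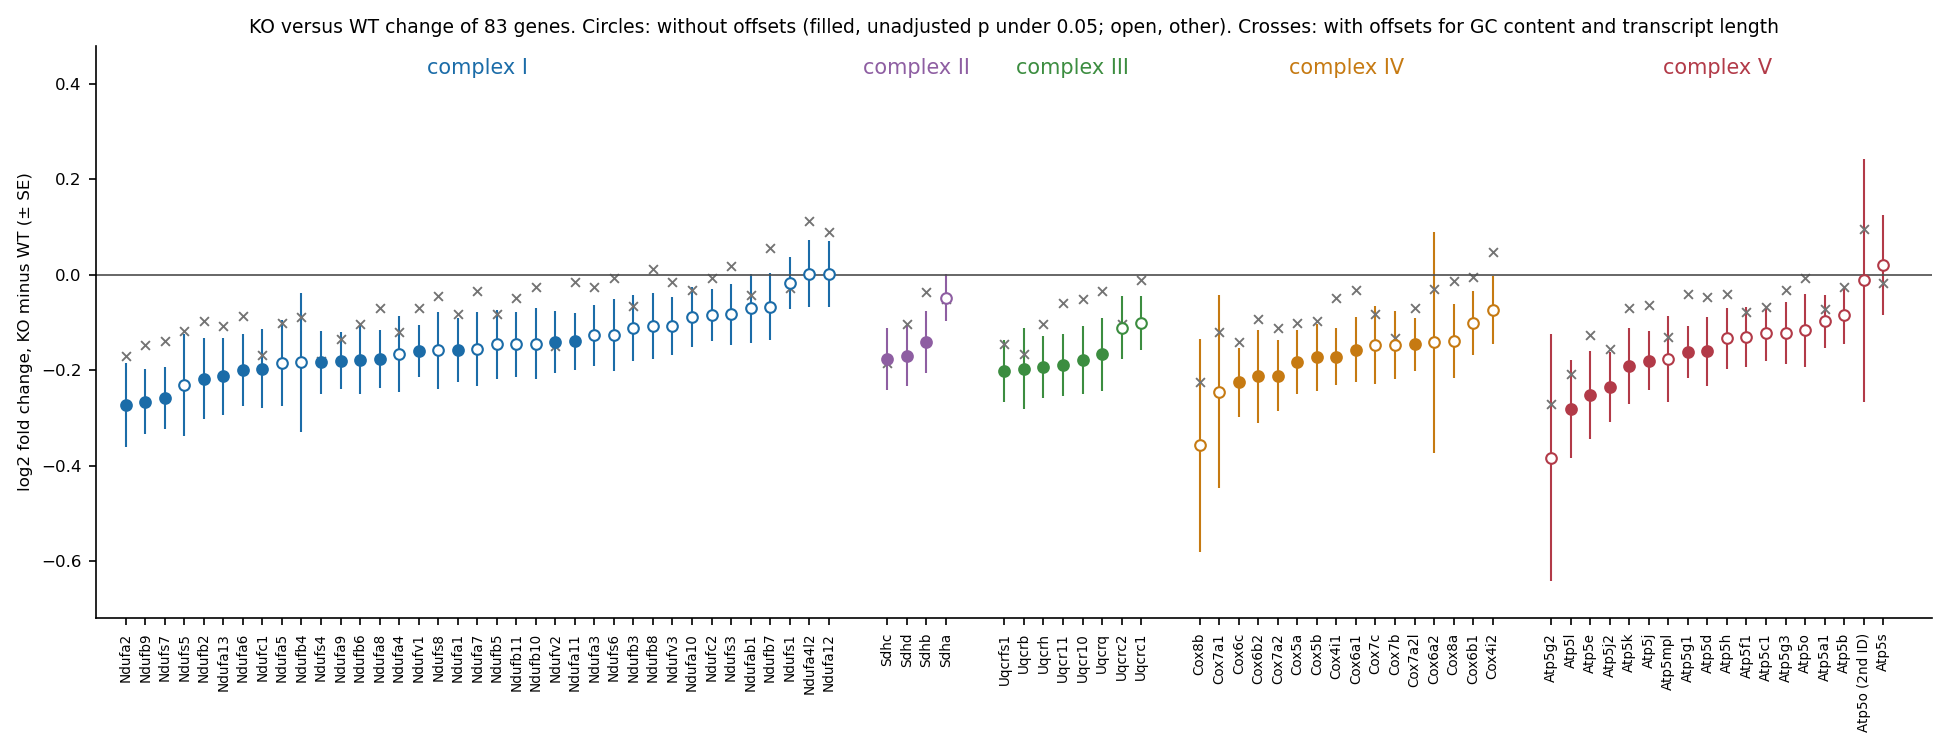
Log2 fold change (KO minus WT) with its SE for 83 of the 84 tested genes, sorted within complexes I to V, filled where the unadjusted p was under 0.05, with the estimate under offsets for GC content and transcript length as a cross. In every complex most circles lie below 0, and most crosses lie closer to 0 than their circles.

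In complex I, 16 of 38 genes were lower at an unadjusted p under 0.05, with a median log2 fold change of -0.15 over the 38. That count was 6 without WT replicate 1, 10 without KO replicate 5 and 29 without WT replicate 4. Ndufs7 (chromosome 10, 80249121 to 80256794, plus strand; GRCm38 here and below) encodes the subunit whose iron-sulfur cluster hands electrons to ubiquinone. It measured 42.6, 49.8, 54.3, 52.3 and 49.0 CPM in KO and 65.6, 58.9, 52.2, 54.2 and 58.6 CPM in WT replicates 1 to 5. KO replicate 1 was lowest and WT replicate 1 highest, and the groups overlapped between 52.2 and 54.3 CPM. The log2 fold change was -0.26 ± 0.065 (SE; edgeR's quasi-likelihood test, unadjusted p = 0.00146, Benjamini-Hochberg adjusted p = 0.132). Ndufb9 (chromosome 15, 58933756 to 58939488, plus strand), an accessory subunit of the membrane arm, measured 44.4, 46.0, 49.6, 46.4 and 43.5 CPM in KO. Its WT values were 61.0, 55.3, 48.8, 48.8 and 59.0 CPM, so that KO replicate 3 alone reached the WT range. The log2 fold change was -0.27 ± 0.068 (edgeR, Benjamini-Hochberg adjusted p = 0.134).

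Ndufv1, which binds NADH and carries the flavin, had a log2 fold change of -0.16 ± 0.054, with KO values of 72.8 to 79.4 and WT values of 77.6 to 90.4 CPM. Its partner Ndufs1, the largest iron-sulfur subunit, measured 52.4 to 57.1 CPM in KO and 51.0 to 60.01 CPM in WT, a log2 fold change of -0.02 ± 0.055. By comparison, the core subunit Ndufs3 had -0.08. The lowest estimate in the complex belonged to Ndufa2, an accessory subunit, at -0.27 ± 0.088.

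Among the other genes of complex I at an unadjusted p under 0.05 were Ndufb2, Ndufa13, Ndufa6, Ndufc1, Ndufs4, Ndufa9, Ndufb6, Ndufa8, Ndufa1, Ndufv2 and Ndufa11, with log2 fold changes from -0.22 (Ndufb2) to -0.14 (Ndufa11). Both genes with a positive estimate, Ndufa12 and Ndufa4l2, were at 0.002. Ndufa4l2 had means of 30.8 ± 2.80 CPM in KO and 30.6 ± 1.71 CPM in WT (SD, n = 5 each). Ndufa4 itself had a log2 fold change of -0.17 ± 0.080, from a KO mean of 69.0 ± 4.64 and a WT mean of 77.4 ± 9.24 CPM (SD, n = 5 each). Between Ndufa4 and Ndufa4l2 the difference in response was not tested.

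In complex II, which is encoded wholly in the nucleus, 3 of 4 genes were lower at an unadjusted p under 0.05, but 0 without WT replicate 1 or KO replicate 1 and 1 without WT replicate 5. The membrane anchor Sdhc measured 68.5, 77.1, 83.1, 79.2 and 73.0 CPM in KO and 94.4, 88.6, 75.7, 79.6 and 84.7 CPM in WT replicates 1 to 5. The groups overlapped, with KO replicate 1 lowest and WT replicate 1 highest, and the log2 fold change was -0.18 ± 0.065. The other anchor, Sdhd, had -0.17 ± 0.064, and Sdhb, which carries the iron-sulfur clusters, had -0.14 ± 0.065. Sdha, the flavoprotein that oxidises succinate, measured 216, 205, 211, 218 and 214 CPM in KO and 221, 210, 214, 212 and 239 CPM in WT. Its log2 fold change was -0.05 ± 0.050, and all its KO values lay within or just under the WT range.

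Complex III had 6 of 8 genes lower at an unadjusted p under 0.05 and the median of its 8 genes was -0.18. Without WT replicate 1 the count was 2, and without KO replicate 1 or 5 it was 3. Uqcrfs1, the Rieske protein, measured 53.3, 55.2, 58.8, 62.3 and 61.9 CPM in KO and 73.7, 66.95, 59.5, 60.2 and 69.1 CPM in WT replicates 1 to 5. WT replicates 3 and 4 lay among the KO values, and the log2 fold change was -0.20 ± 0.064 (edgeR's quasi-likelihood test, Benjamini-Hochberg adjusted p = 0.181). The small subunits Uqcrb, Uqcrh, Uqcr11, Uqcr10 and Uqcrq had log2 fold changes from -0.20 to -0.17. The 2 core subunits, which stem from a processing peptidase, had smaller estimates: -0.11 ± 0.066 for Uqcrc2 and -0.10 ± 0.057 for Uqcrc1. Their transcripts are longer (1896 and 1653 bases) than those of the small subunits (405 to 547 bases). With offsets for GC content and transcript length, Uqcrc2 had -0.10 and Uqcrc1 -0.01. The small subunits then ran from -0.17 (Uqcrb) to -0.03 (Uqcrq), on both sides of Uqcrc2.

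In complex IV, 8 of 16 tested genes were lower at an unadjusted p under 0.05, and the median of the 16 was -0.17. The count was 2 without WT replicate 1, 3 without KO replicate 1 and 5 without KO replicate 2 or 5. Cox4i1 measured 174, 179, 185, 184 and 181 CPM in KO and 228, 204, 185, 183 and 207 CPM in WT replicates 1 to 5. The KO values were close together, and the WT group reached from their upper end to 228 CPM, with a log2 fold change of -0.17 ± 0.060. Cox4i2 measured 36.5 to 41.8 CPM in KO and 35.3 to 45.9 CPM in WT, a log2 fold change of -0.07 ± 0.072. The smallest p in the complex was that of Cox6c, a small subunit, which measured 44.6, 52.8, 57.0, 53.4 and 50.1 CPM in KO. In WT it measured 66.3, 62.9, 59.1, 53.9 and 56.3 CPM, overlapping with KO between 53.9 and 57.0 CPM. Its log2 fold change was -0.23 ± 0.073 (edgeR's quasi-likelihood test, Benjamini-Hochberg adjusted p = 0.185).

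The other genes of complex IV at an unadjusted p under 0.05 were Cox6b2, Cox7a2, Cox5a, Cox5b, Cox6a1 and Cox7a2l, from -0.21 (Cox6b2 and Cox7a2) to -0.15 (Cox7a2l). Cox5a, which faces the matrix, had -0.18 ± 0.067. Cox8a (-0.14 ± 0.078) and Cox6b1 (-0.10 ± 0.067) did not reach that p. The lowest estimate of the complex, Cox8b at -0.36, had an SE of 0.224, and Cox7a1 (-0.25 ± 0.203) and Cox6a2 (-0.14 ± 0.231) were no more certain. For these 3 the WT group spread more than the KO group, as given with the cardiac markers above.

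In complex V, 7 of 18 genes were lower at an unadjusted p under 0.05, with a median of -0.15 over the 18. The count was 3 without WT replicate 1 and 15 without WT replicate 4. The catalytic subunit genes differed little: Atp5b measured 577, 550, 573, 574 and 565 CPM in KO and 666, 603, 566, 540 and 623 CPM in WT replicates 1 to 5. WT replicate 4 was below every KO mouse for this gene, WT replicate 1 above all, and the log2 fold change was -0.08 ± 0.061. Atp5a1 had -0.10 ± 0.055. Some small subunits of the membrane sector and the stalks had larger estimates: Atp5l -0.28 ± 0.103, Atp5e -0.25 ± 0.092, Atp5j2 -0.24 ± 0.073, Atp5k -0.19 ± 0.080 and Atp5j -0.18 ± 0.062. Others did not reach that p and lay nearer Atp5a1, such as Atp5o and Atp5c1 (-0.12) and Atp5f1 and Atp5h (-0.13). With offsets for GC content and transcript length, Atp5k (-0.07) and Atp5j (-0.06) were no larger than Atp5a1 (-0.07). Atp5l (-0.21), Atp5j2 (-0.16) and Atp5e (-0.13) were larger. Transcripts have 2471 (Atp5a1) and 1916 bases (Atp5b), against 371 to 955 for the small subunits named first. Of all genes of the complex, Atp5j2 (subunit f) had the smallest p. It measured 51.5, 62.4, 65.8, 64.4 and 54.0 CPM in KO and 77.3, 69.6, 66.1, 63.5 and 68.0 CPM in WT, with WT replicate 4 among the KO values (edgeR's quasi-likelihood test, Benjamini-Hochberg adjusted p = 0.171).

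Among the subunit c genes, Atp5g1 had a log2 fold change of -0.16 ± 0.055 and Atp5g3 -0.12 ± 0.065. Atp5g2 had the lowest estimate of all 84 genes at -0.38, but its SE was 0.259 at means of 1.20 ± 0.580 CPM in KO and 1.36 ± 0.561 CPM in WT (SD, n = 5 each). The remaining gene at an unadjusted p under 0.05 was Atp5d, the delta subunit, at -0.16 ± 0.073. The highest estimate of the complex was that of Atp5s, a regulatory factor related to subunits rather than one of them, at 0.02 ± 0.105. The second identifier of Atp5o, at 3.94 ± 1.66 CPM in KO, had an SE of 0.254, against 0.077 for the main one.

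**Figure D4:**
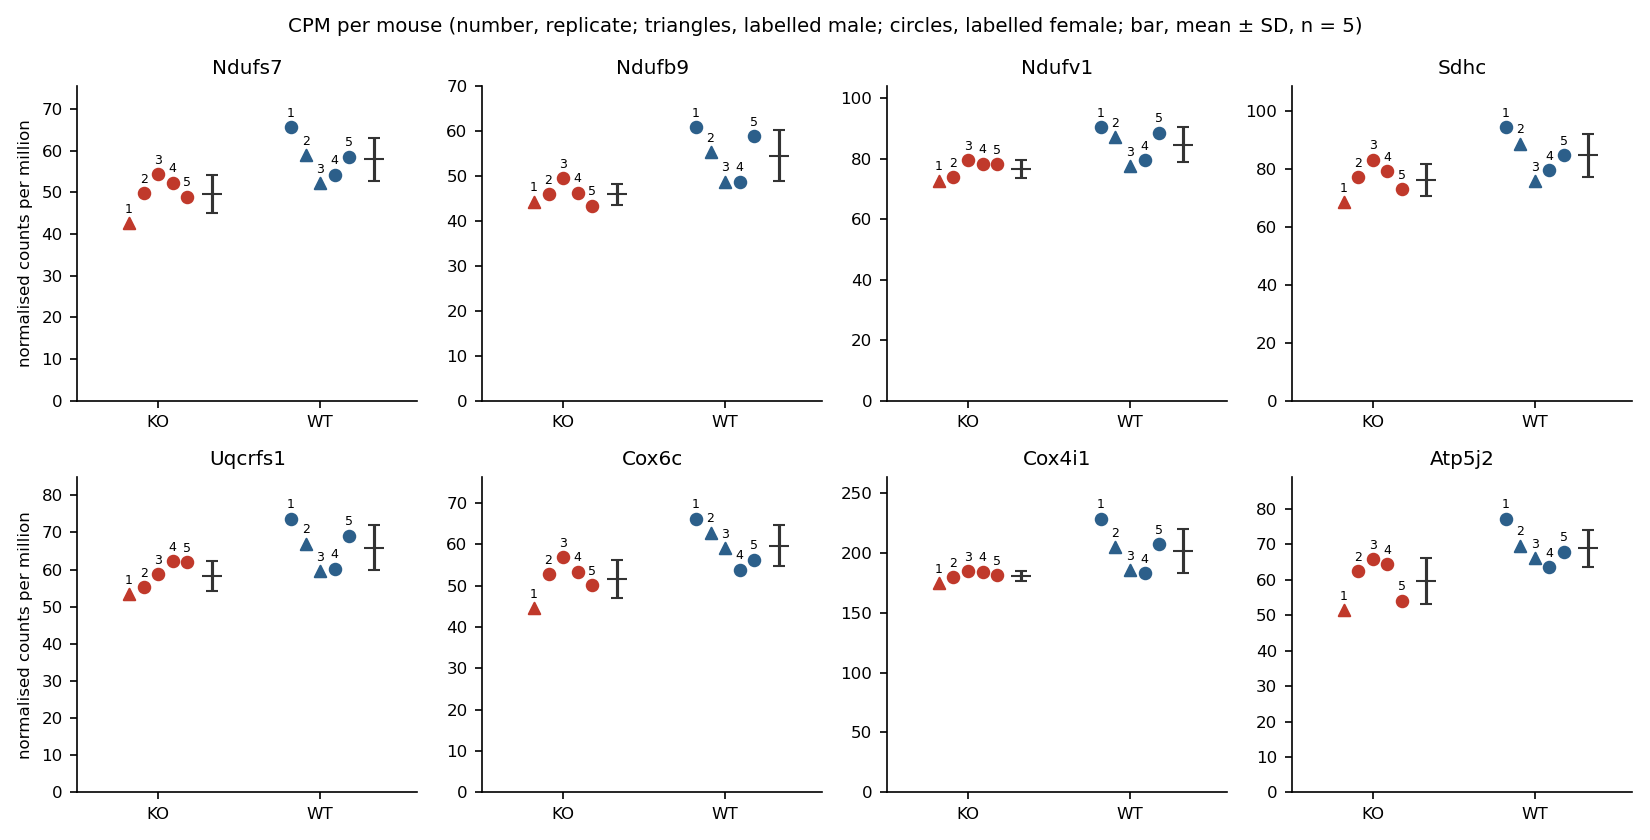
CPM per mouse for 8 genes of complexes I to V, numbered by replicate, with mean ± SD (n = 5) beside each group and the axis from 0. In these panels WT replicate 1 stands highest, while WT replicate 3 or 4 reaches into the KO range.

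The spread between mice was shared by the complexes. Averaged over the 84 genes on a log2 scale, KO replicates 1 to 5 deviated from the mean over the 10 mice by -0.13, -0.10, -0.005, 0.005 and -0.11. WT replicates 1 to 5 deviated by 0.25, 0.09, -0.04, -0.05 and 0.10. KO replicates 3 and 4 thus lay above WT replicates 3 and 4, and WT replicate 1 was farthest from the rest. WT replicate 1 was the highest of 10 mice in 68 of the 84 genes, and KO replicate 1 the lowest in 32 and KO replicate 5 in 22. Such counts were not made over all genes. WT replicate 1 lay above the mean over mice in 84 of the 84 genes and in 9293 of all 18024. Of the 1009 other coding genes with a transcript of at most 1000 bases, 855 were above it in that mouse. The mean deviation of the 84 genes was -0.07 ± 0.064 in KO and 0.07 ± 0.120 in WT (SD, n = 5 each). Per complex the KO mean was 0.11 (complex II) to 0.15 (complexes III and IV) below the WT mean on the log2 scale, with WT replicate 1 highest in all 5. In share of all counts, the 86 genes took 0.559% ± 0.0173 in KO and 0.605% ± 0.0503 in WT mice (SD, n = 5 each).

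The count of 40 genes at an unadjusted p under 0.05 was 38 by the DESeq2 Wald test (background 6.99% of all genes lower). By limma-voom it was 36 (background 8.04%), and single libraries moved it further. Without WT replicate 1 it was 13 of 84 (background 4.68% of all genes lower), with a median log2 fold change of -0.11. Without WT replicate 4 it was 66 of 84 (background 8.62%), with a median of -0.20. Without KO replicate 5 it was 25 (background 6.31%), without KO replicate 1 it was 24 (background 5.75%), and in the 7 labelled females alone it was 27 (background 6.05%). In those females without KO replicate 5, a fit chosen after seeing the data, it was 9 (background 4.22%), with a median of -0.13. In each of these fits 0 of the 84 genes were higher in KO at that p. The DESeq2 Wald test called 2 of the 84, Ndufs7 and Ndufb9, at an adjusted p under 0.05, with 346 of 18024 genes (1.92%) called in all.

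Other coding genes with short transcripts were low and high in some of the same mice. Not every gene group was: regulators of mitochondrial biogenesis deviated by 0.04 in KO replicate 1 and by -0.05 in WT replicate 1. The median transcript of the 84 genes had 738.5 bases, against 2517 over all genes tested. The other 1009 coding genes with a transcript of at most 1000 bases had a median log2 fold change of -0.12, with 24.6% lower and 1.68% higher in KO at an unadjusted p under 0.05. Of these 1009 genes, 811 had a negative estimate. Coding genes with a longer transcript had a median of 0.006, with 7.12% lower and 10.5% higher. Within the subunit genes, the 56 with a transcript of at most 1000 bases had a median of -0.17 (50% lower at that p) and the 28 with a longer one -0.14 (42.9%). The mean deviation of the other short genes was -0.10 in KO replicate 1, -0.09 in KO replicate 5 and 0.17 in WT replicate 1, the same libraries that stood low and high for the subunit genes. With offsets for GC content and transcript length in the fit, 12 of the 84 genes were lower at an unadjusted p under 0.05 (background 6.34%), 77 of 84 estimates were negative and the median was -0.07. Those 12 were 7 genes of complex I, 2 of complex III and 1 each of complexes II, IV and V. Ndufs7 then had a log2 fold change of -0.14 and Ndufb9 of -0.15. The part of transcript length in the genotype difference was not tested beyond these values.

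**Figure D5:**
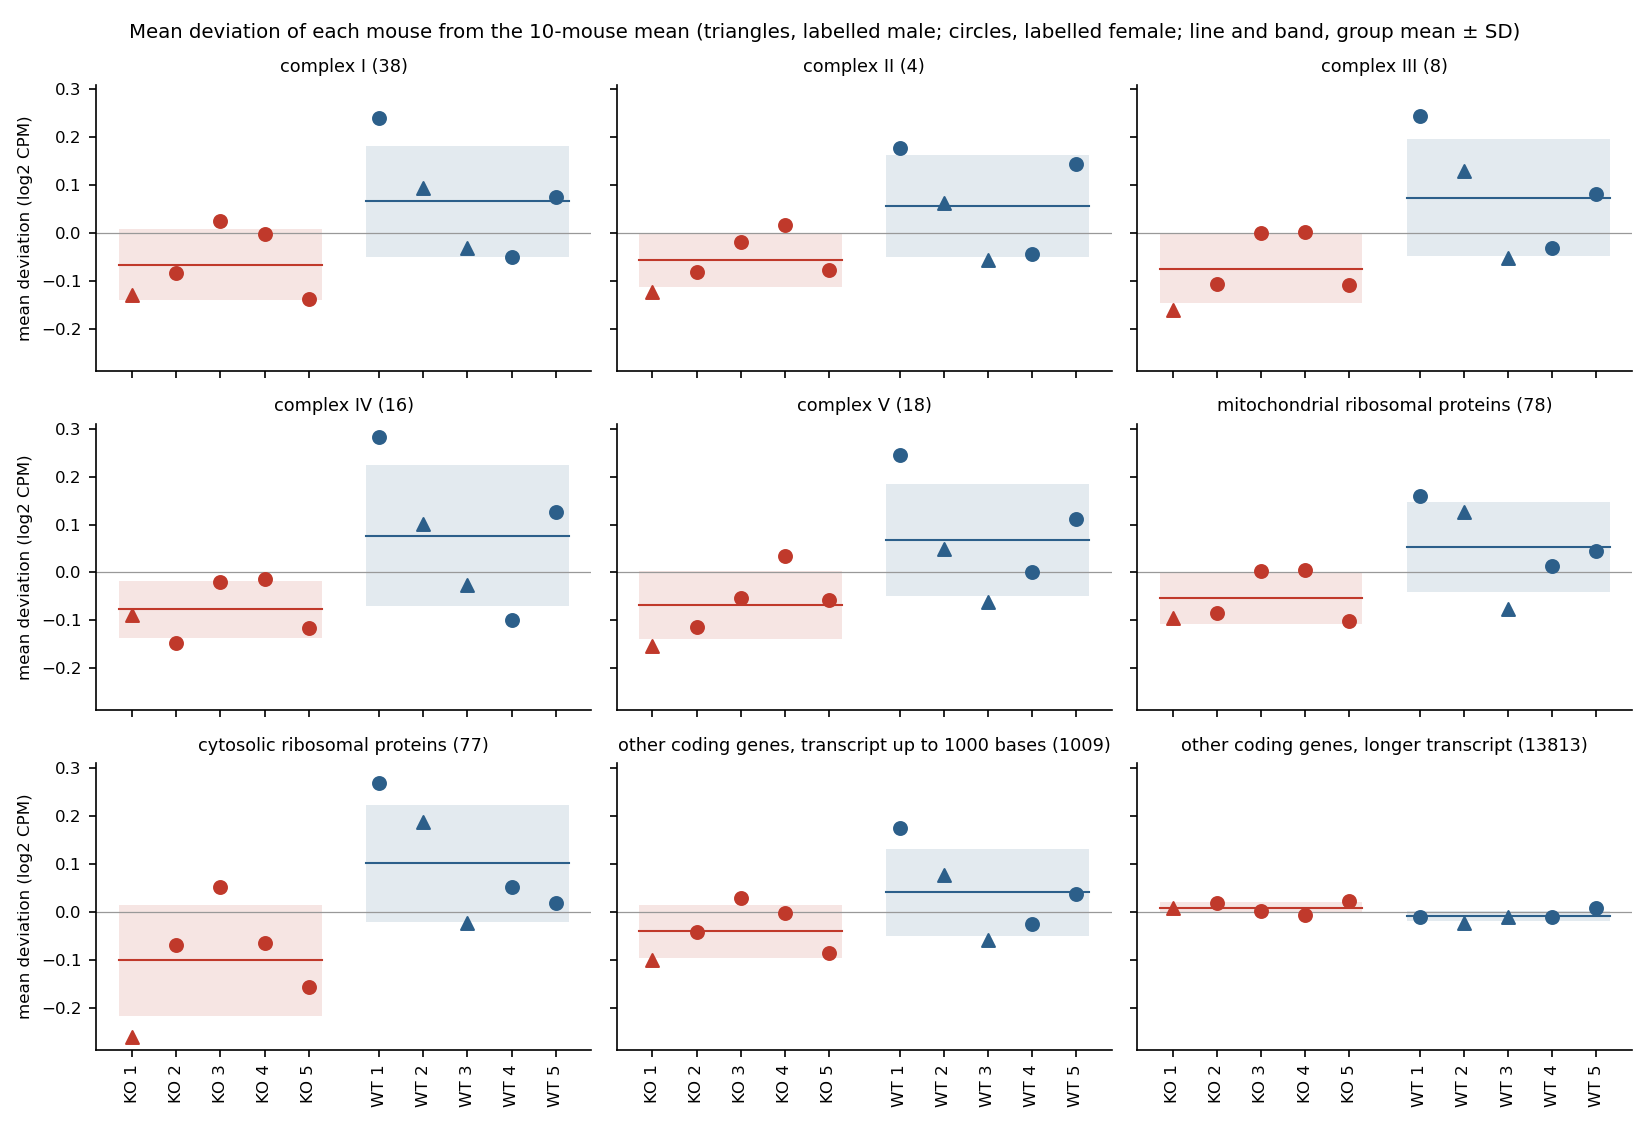
Mean deviation of each mouse from the mean over 10 mice in log2 CPM, for the 5 complexes, for mitochondrial and cytosolic ribosomal protein genes and for other coding genes split at a transcript of 1000 bases, with group mean ± SD as line and band. WT replicate 1 is highest for all 5 complexes and both ribosomal lists, and the longer genes stay between -0.023 and 0.022.

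Other genes of the pathway were read from lists. The background for these and the lists that follow was 8.04% lower and 8.92% higher in KO, over all genes tested. Of 18 complex I assembly factors tested, 5 were lower and 0 higher in KO at an unadjusted p under 0.05 (median -0.10), Ndufaf3 among them at -0.18. Of 24 complex IV assembly factors, 7 were lower and 2 higher (median -0.12). They included the copper chaperone Sco2 at -0.50 ± 0.220 and, in the other direction, the chaperone Cox20 at 0.37 ± 0.092. Complex II had 1 of 4 assembly factors lower, and the complex V list with the inhibitor Atpif1 had 0 of 4 (median -0.09). Of 9 complex III assembly factors and cytochromes c, 2 were lower. Cyc1, the haem-bearing subunit of complex III that the naming rule leaves out, was one of them at -0.19 ± 0.066, while cytochrome c itself (Cycs) had 0.16 ± 0.150. Tricarboxylic acid cycle enzymes had 3 of 18 lower and 0 higher (median -0.08), and carriers, import and inner membrane genes 5 lower and 1 higher of 23 (median -0.07).

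Ribosomal protein genes were read the same way, with median transcripts of 774 bases (cytosolic) and 1251.5 bases (mitochondrial). Cytosolic ribosomal protein genes had 65 of 77 lower at an unadjusted p under 0.05 (median -0.21) and mitochondrial ribosomal protein genes 25 of 78 (median -0.12), with 0 higher in both. With the offsets these counts were 29 and 15. Without offsets, 76 of 77 cytosolic and 76 of 78 mitochondrial ribosomal protein genes had a negative estimate. Regulators of mitochondrial biogenesis had 2 lower and 4 higher of 20, with a median of 0.05. Pprc1, a coactivator of respiratory gene transcription, had 0.32 ± 0.051 (edgeR's quasi-likelihood test, Benjamini-Hochberg adjusted p = 0.0674). Esrra, an estrogen-related receptor, had -0.15 ± 0.059 and Nrf1 -0.03 ± 0.053. By edgeR's quasi-likelihood test none of these lists held a gene at an adjusted p under 0.05.

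Markers of lung cell types were set beside these values. Alveolar type 2 markers had 4 of 7 genes lower in KO at an unadjusted p under 0.05 (median -0.17), with sums of 23550 to 26770 CPM in KO and 24460 to 29060 CPM in WT, and 0 markers at 0. Their sum was highest in WT replicates 1 (29060 CPM) and 2 (28710 CPM), where the subunit genes deviated by 0.25 and 0.09. The other WT mice did not keep that order. WT replicate 4 had 27710 CPM and a deviation of -0.05, and WT replicate 5 had 26540 CPM and 0.10. Other lists were also highest in WT replicates 1 and 2: club cell markers (30010 and 34290 CPM) and alveolar type 1 markers (4896 and 5461 CPM). For the latter, WT replicate 3 was close at 4894 CPM. Ciliated cell markers were highest in KO replicate 1 (743 CPM). The part of these markers in the subunit genes' values was not tested. Of the T cell markers 2 of 6 were lower, and of the pericyte markers 1 of 8 was lower and 2 were higher. For ciliated cells 2 of 7 markers were higher and 0 lower. The lists for cardiac muscle, smooth muscle, alveolar type 1, club, capillary endothelial and fibroblast cells and alveolar macrophages each had 1 gene lower and 0 higher. Over all genes tested, 8.04% were lower and 8.92% higher at that p, so 1 gene in lists this short cannot be set apart from the background. Those for skeletal muscle, brown and white fat, neutrophils, B cells and red cells had 0 in either direction.

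Sex was the other labelled difference between mice. In males against females, edgeR's quasi-likelihood test (Benjamini-Hochberg adjusted p under 0.05) called 0 of the 84 genes and 105 genes (0.583%) in all. At an unadjusted p under 0.05, 5 of 84 (5.95%) were lower in males and 0 higher, near the 7.79% of all genes that were lower. The median log2 fold change was -0.07. Here too most estimates were negative: 75 of the 84, against 9320 of all 18024 genes. The smallest p belonged to Atp5g2, which measured 0.551, 0.858 and 0.844 CPM in the 3 males. In the 7 females it ran from 0.776 to 2.22 CPM with a median of 1.41, and the sexes overlapped through KO replicate 2. The log2 fold change, males minus females, was -1.09 (edgeR's quasi-likelihood test, Benjamini-Hochberg adjusted p = 0.117) and, without KO replicate 5, -1.10 (adjusted p = 0.157). Atp5l followed at -0.29, with 14.9, 19.8 and 21.5 CPM in males and 18.1 to 25.6 CPM in females. Ndufa11 had -0.17, with 29.3, 34.1 and 29.7 CPM in males and 31.1 to 38.9 CPM in females. Without KO replicate 5 the count lower in males was 6 of 84 (background 7.39%). It was 20 without WT replicate 4 (background 8.48%) and 1 without WT replicate 1 (background 6.35%). The KO group held 1 male by label, and the Xist level of KO replicate 5 (1.78 CPM) lay near those of the labelled males, so whether the genotype difference depends on sex was not tested.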

How the data were processed

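RNA of the right middle lobe was sequenced from 5 KO and 5 WT mice as stranded mRNA libraries with single reads of 50 bases, per the labels' protocols. The authors deposited 1 table of estimated counts per gene, not scaled between samples. The submitters' processing notes name FastQC, MultiQC, STAR 2.6.0, Salmon 0.9.1 and the builds mm10 and GRCm38, without their roles; annotation, filters and strand setting are not given in the sources used here. More than 0.01 off a whole number were 30.1% of non-zero values (42.6% for the 86 genes), as when reads are shared among copies, and 27 of the 86 overlap a tested gene on the opposite strand. Of the identifiers, 47281 matched GENCODE M21.

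Counts were rounded and scaled by TMM. Genes were kept by filterByExpr with genotype as group (minimum count 10, total 15), which left 18024. KO and WT were compared with edgeR 4.0.16 in R 4.3.3 (quasi-likelihood, robust, sex as covariate, Benjamini-Hochberg over all genes), and sexes by the sex term of that fit. Tests were two-sided. Levels per kilobase used the principal coding transcript, the shortest among ties, a choice made after longer forms were seen. Log2 CPM used a prior count of 2. Marker, pathway and motif lists and the members were chosen with earlier results of these data known.

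Named genes were, per complex, the highest and lowest log2 fold change and level and the 2 smallest p, plus core subunits, isoforms, untested genes and the 3 smallest p for sex. Others were named after their values were seen, and 1 gene is not reported here by name. Alternatives were DESeq2 1.42.0 size factors and Wald test, limma 3.58.1 voom, no filter, a mean CPM of at least 1, no covariate, females alone (also without KO replicate 5), no robust dispersion, an adjusted p under 0.1, GC and length offsets (lowess, span 0.3), other lengths and prior counts (0.5), and each mouse left out. Scripts were tested on simulated data. The closest 2 libraries of a genotype differed by a chi-square of 5.91 per degree of freedom, so no library was a copy. Each library has its own sex and age label and was taken as 1 mouse; the labels give no animal numbers. Floors of 3 counts cover counting error only.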

Additional observations from a re-analysis of the deposited data

Results flagged for a closer look

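In 93 sets of values (named genes and complexes within a genotype, and 3 genes among females), 1 mouse stood far from the other mice in 2 sets, where chance gives about 4.7. Sdhd measured 66.4 CPM in KO replicate 4 against 55.1 to 58.1 CPM in the other 4 KO mice. Ndufa4l2 measured 27.6 CPM in WT replicate 5 against 31.1 to 31.7 CPM in the other 4 WT mice.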

How the results depend on the processing

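Between KO and WT, the 84 tested genes kept a negative median and 0 genes higher at an unadjusted p under 0.05 in every alternative fit, and none passed an adjusted p under 0.05 except 2 under the DESeq2 Wald test (Ndufb9, adjusted p = 0.0376, and Ndufs7, 0.0315; up to 0.365 for both in the other fits that kept both sexes). Against 40 genes lower at an unadjusted p under 0.05, offsets for GC content and transcript length gave 12, and leaving out 1 mouse gave 13 (without WT replicate 1) to 66 (without WT replicate 4), with 24 and 25 without KO replicates 1 and 5. Labelled females without KO replicate 5, a fit added after seeing the data, gave 9, with a median of -0.127; counts by complex without each mouse were also added then. Median log2 fold changes without 1 mouse ran from -0.105 to -0.2. Single genes with estimates near 0 changed sign; without 1 mouse the log2 fold change ran from -0.105 to 0.063 for Atp5s, -0.061 to 0.068 for Ndufa12, -0.05 to 0.066 for Ndufa4l2, -0.314 to 0.036 for Cox6a2 and -0.053 to 0.024 for Ndufs1. Atp5s read -0.018 with the offsets and -0.105 and -0.021 without KO replicate 1 or WT replicate 3. Ndufa12 read -0.061, -0.009, -0.001, -0.025 and -0.034 without KO replicates 1 or 4 or WT replicates 2, 3 or 4. Ndufa4l2 read -0.039, -0.014 and -0.05 without KO replicates 3 or 4 or WT replicate 5. Cox4i2 read 0.047 with the offsets, Cox6a2 0.036 without WT replicate 1 and Ndufs1 0.024 without WT replicate 5. Between the sexes, 5 genes lower in males at an unadjusted p under 0.05 became 1 with no covariate. Without 1 mouse the count ran from 1 to 20. It was 1 without WT replicate 1 and 2 without KO replicate 1 or WT replicate 3. It was 3 without KO replicates 3 or 4, 12 without WT replicate 2 and 20 without WT replicate 4. Over all genes, 5.98% were lower in males with no covariate and 6.35% without WT replicate 1. Those shares were 7.77% without WT replicate 2 and 8.48% without WT replicate 4. The causes were not tested. The median level of 62.4 CPM per kilobase was 30.9 with the union of all exons, which is longer by construction. No paired analysis was possible because the labels give no replicate numbers. The median SE of 0.07 on the log2 scale and 5 mice per group limit what these fits can separate.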
